A study of Mus musculus with 6 samples.

Results

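The 39 genes described here are listed by name as transcriptional targets of p53 from what is known of the p53 pathway. The list was chosen with earlier results of these data known. Whether p53 acts on each gene in these mouse cells was not tested. The genes were sorted by role into feedback on p53 itself, arrest and growth control, spindle-associated proteins, cell death, DNA repair, and metabolism and stress. Of these, 38 had a probe set that named them alone, out of 19856 genes measured in the series; Gdf15 was not analysed here. The study set cells described as transformed tetraploid mouse embryonic fibroblasts, with an abnormal DNA content (line 174, 3 samples), against diploid mouse embryonic fibroblasts labelled as the normal control (line FW, 3 samples). Both lines were cultured in DMEM with serum until nearly confluent, and RNA depleted of ribosomal RNA was hybridised to whole-transcript mouse gene arrays, 1 array per sample. With a single line of each ploidy, effects of ploidy, of transformation and of the line itself cannot be told apart. Whether samples of the same line came from separate cultures is not stated, and p-values therefore measure only the spread between these samples. In bulk RNA, fewer cells that express a gene and less of its RNA per cell cannot be told apart.

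p53 is a transcription factor that is stabilised by DNA damage, oncogene signalling and an abnormal chromosome content, and it binds response elements made of a pair of decamers near its target genes. Some targets act back on p53, foremost Mdm2, the ubiquitin ligase that marks p53 for degradation, and others stop the cell cycle, trigger apoptosis, assist DNA repair or adjust metabolism. p53 also lowers many mitotic genes indirectly, by way of a cyclin-dependent kinase inhibitor and the DREAM repressor complex, and tetraploid fibroblasts are a textbook setting in which an intact p53 pathway limits proliferation. The gene that encodes p53 was not analysed here.

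The deposited values are log2 signals, and array medians lay between 7.24 and 7.28, a range of 0.04. A background level was set on each array at the 95th percentile of 1027 olfactory receptor genes, which fibroblasts are not known to use; it was 7.18, 7.41 and 7.28 for tetraploid cells and 7.23, 7.26 and 7.01 for diploid cells. Between 10212 and 11300 genes lay above it per array. Of 12 fibroblast markers, 11 were above background on each tetraploid array and all 12 on each diploid array. Of the 12, 3 fell (25%), against 7.8% of all genes called lower. The 14 macrophage markers had a mean signal of 3.879, 4.128 and 3.999 on the tetraploid arrays, against 4.971, 6.484 and 7.323 on the diploid arrays. Of these markers 1, 1 and 0 were above background in tetraploid cells, against 1, 4 and 8 in diploid cells. Of the 14, 4 were called lower (28.6%, against 7.8% of all genes), none of them with values raised to background. The macrophage markers Adgre1 and Lyz1 were listed at 0 on the first tetraploid array. The diploid arrays thus differed among themselves in macrophage markers, and the part of this in the results was not tested. The mean signal of the p53 targets was 8.43, 8.46 and 8.34 on the tetraploid arrays, against 9.74, 9.62 and 9.61 on the diploid arrays, with little difference between arrays of a line.

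Of the 38 measured p53 targets, 23 fell in the tetraploid cells and 2 rose (limma, Benjamini-Hochberg adjusted p below 0.05 over all genes), while 13 did not pass. Across all 19856 genes, 7.8% were called lower and 6.15% higher, against 60.5% and 5.26% of the p53 targets. Because the list was chosen with earlier results of these data known, these shares describe it and are no independent test. The median difference, tetraploid minus diploid, was -1.29 over the p53 targets and 0.07 over all genes, on the log2 scale. Without diploid array 1, 2 or 3, 14, 13 and 15 targets fell and none rose, while 3.43%, 2.9% and 3.36% of all genes were called lower; without 1 tetraploid array, 21 or 22 fell and between 1 and 4 rose. With values raised to background 25 targets fell and 3 rose, against 10% and 9.87% of all genes. Among genes above background on at least 3 arrays, 28 of 37 targets fell and 4 rose, against 16% and 15% of 11193 kept. That filter also keeps genes through the line where they are high, among them Perp, Fas and Bbc3, which did not pass over all genes. In 28 of the 38 targets every tetraploid array lay below every diploid array, and in 4 every tetraploid array lay above; 18.2% and 19.1% of all genes were separated in these directions. Among targets above background on at least 1 array of each line, single differences ranged from -2.67 for the exonuclease gene Aen to 1.93 for the stress gene Sesn1. In 8 targets all arrays of 1 line were at or below background, so that at most a bound on the fold change can be given; with values raised to background the median over the targets was -1.11. An exact permutation test of 3 against 3 arrays cannot give a two-sided p below 0.1, and the p-values given here rest on the spread that limma shares across genes.

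**Figure D1:**
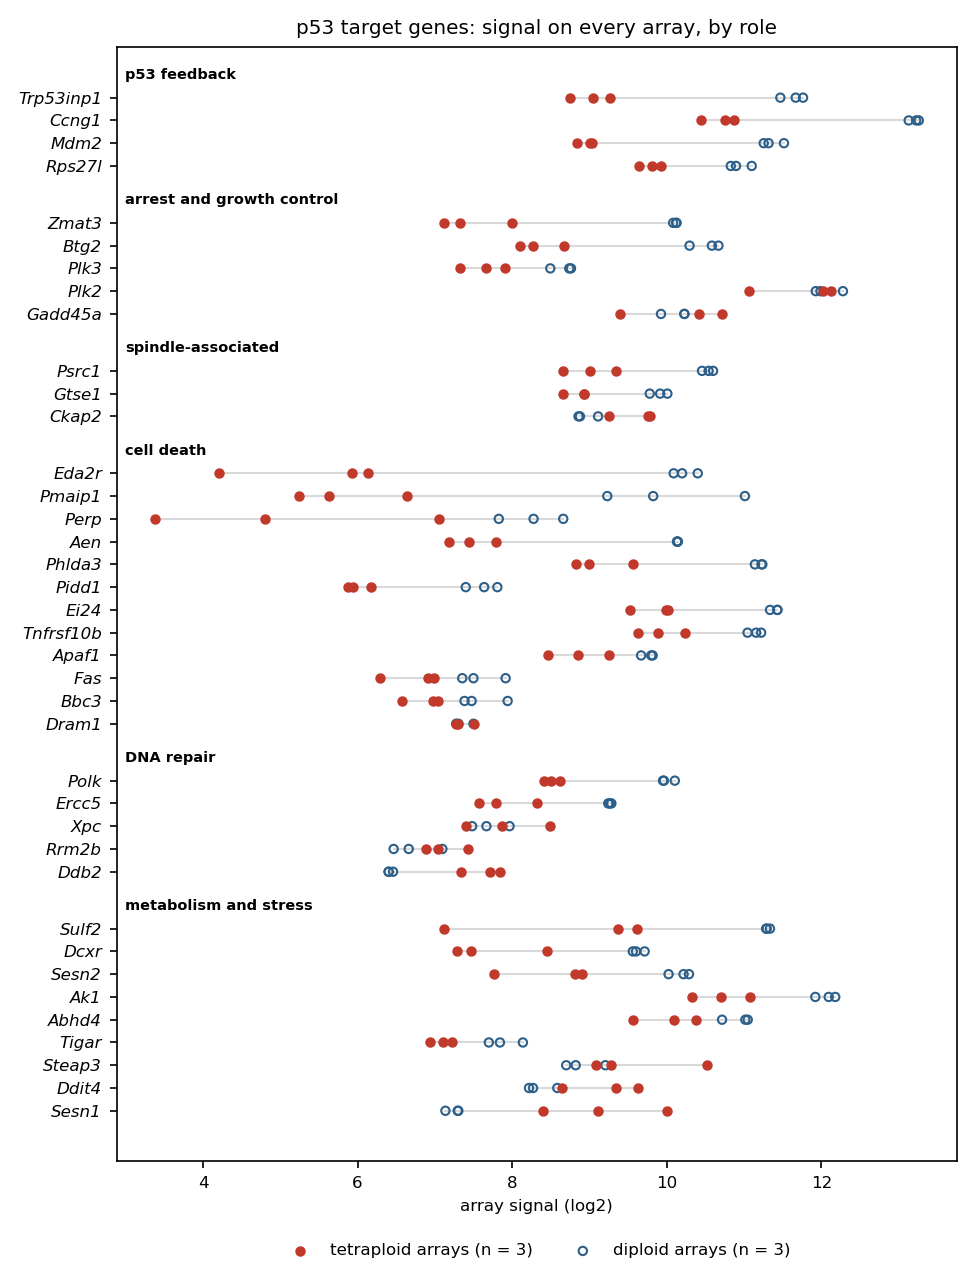
Array signal (log2, horizontal axis) of the 38 measured p53 targets, grouped by role; each filled point is 1 of 3 tetraploid arrays and each open point 1 of 3 diploid arrays. In 28 genes all filled points lie left of all open points, and in 4 (Ckap2, Ddb2, Ddit4 and Sesn1) they lie to the right.

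**Figure D2:**
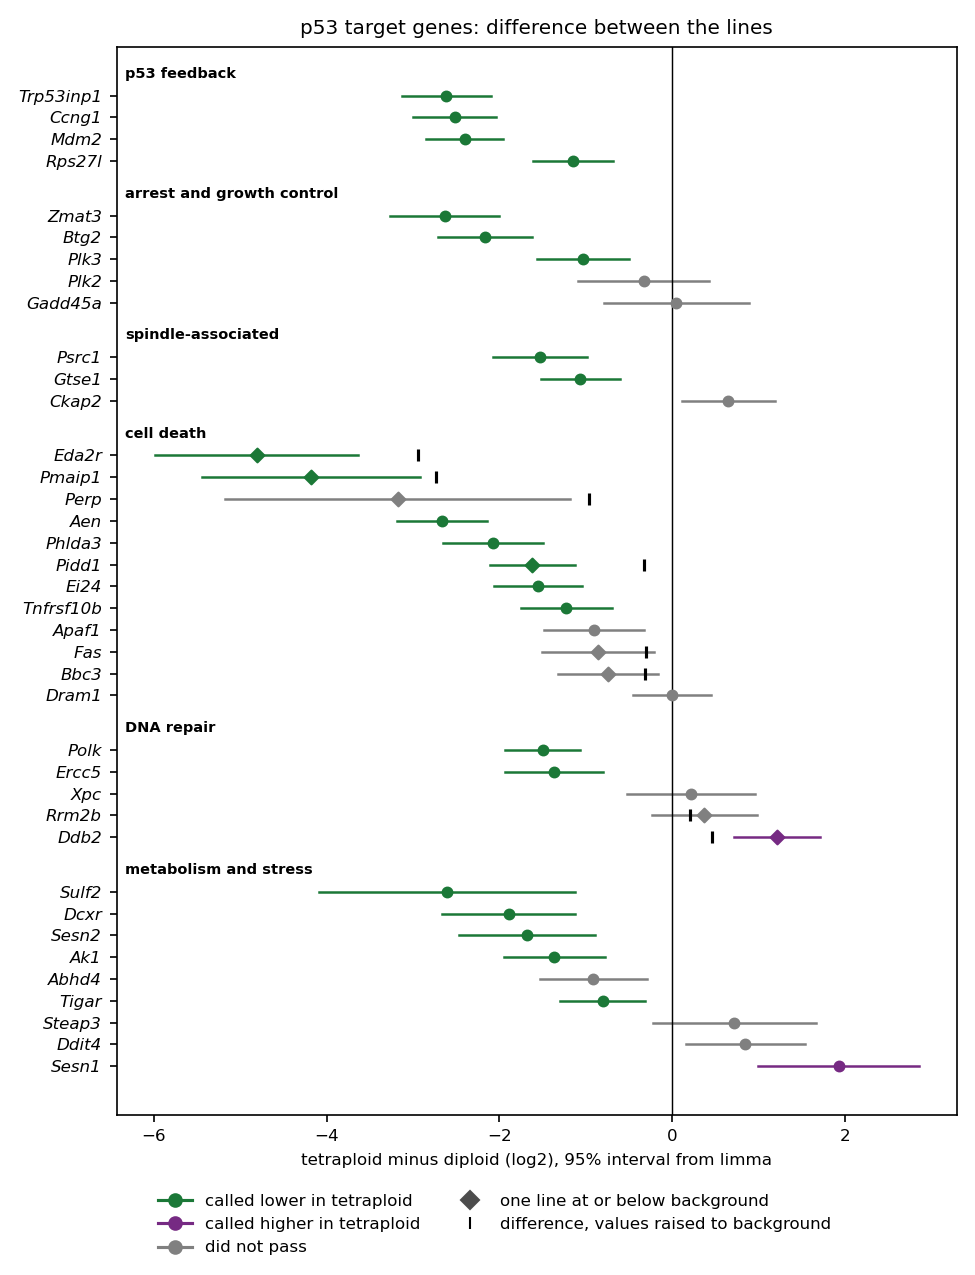
Tetraploid minus diploid difference (log2, horizontal axis) of each p53 target with its 95% interval from limma; green points were called lower, purple points higher, and grey points did not pass. Diamonds mark genes for which 1 line was at or below background, and the short black bar beside them is the difference after values were raised to background; all 4 feedback genes lie between -2.62 and -1.15.

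The genes that feed back on p53 fell in full, 4 of 4 measured, with a median difference of -2.46. Mdm2 had signals of 8.84, 9.01 and 9.03 on the tetraploid arrays, against 11.52, 11.26 and 11.32 on the diploid arrays. Its tetraploid arrays sat together more than 2 log2 units under the lowest diploid array, a 5.29-fold lower mean (difference -2.40 ± 0.19, SE; limma adjusted p = 0.00103). Ccng1, which encodes cyclin G1, a protein that recruits a phosphatase to Mdm2, had 10.75, 10.87 and 10.44 in tetraploid cells and 13.26, 13.13 and 13.23 in diploid cells. The groups were again far apart, and the gene was 5.73-fold lower in tetraploid cells (-2.52 ± 0.20, SE; limma adjusted p = 0.00108). Trp53inp1, a nuclear protein that promotes p53 phosphorylation and autophagy, had 9.26, 8.75 and 9.04 in tetraploid cells and 11.67, 11.76 and 11.47 in diploid cells. That is a 6.13-fold lower mean in tetraploid cells (-2.62 ± 0.22, SE; limma adjusted p = 0.00116). Rps27l, a ribosomal protein paralogue that binds Mdm2, had 9.80, 9.64 and 9.93 in tetraploid cells and 10.83, 10.90 and 11.10 in diploid cells. Its groups did not overlap either, but the step was smaller, 2.22-fold lower in tetraploid cells (-1.15 ± 0.20, SE; limma adjusted p = 0.013); without diploid array 2 or 3 the adjusted p missed 0.05, reaching 0.0617.

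To set these values beside the sequence that p53 reads, RefSeq promoter windows (GRCm38.p6, from 250 bases before to 50 bases after a transcription start) were searched on both strands for the p53 consensus decamer. The motif is its own reverse complement, so both strands give the same matches, and overlapping matches were allowed. Windows were at hand for 31 of the 39 targets, 48 windows in all. No target held a pair of exact decamers with a spacer of up to 13 bases, and 20 of 27025 genes in the table did (0.074%). With 1 mismatch allowed in each decamer, the fixed C and G of its core kept, 3 targets held a pair (9.68%), against 835 of all genes (3.09%). These were Ccng1, Gtse1 and Rps27l, all of which fell, and their windows are printed 5′ to 3′ with the paired decamers in capitals, since they hold the closest matches among the targets. In each of the 3 pairs the decamers adjoin with no spacer, and 1 of them is exact. The windows lie at chr11:40755237-40755536 (minus strand), chr15:85859696-85859995 (plus strand) and chr9:66946163-66946462 (plus strand).
Ccng1: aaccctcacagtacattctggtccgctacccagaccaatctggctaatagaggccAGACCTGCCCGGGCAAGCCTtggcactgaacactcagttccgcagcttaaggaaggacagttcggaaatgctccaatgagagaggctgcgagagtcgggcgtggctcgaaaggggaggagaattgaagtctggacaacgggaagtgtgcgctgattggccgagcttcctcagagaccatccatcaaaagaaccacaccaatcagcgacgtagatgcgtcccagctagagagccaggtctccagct
Gtse1: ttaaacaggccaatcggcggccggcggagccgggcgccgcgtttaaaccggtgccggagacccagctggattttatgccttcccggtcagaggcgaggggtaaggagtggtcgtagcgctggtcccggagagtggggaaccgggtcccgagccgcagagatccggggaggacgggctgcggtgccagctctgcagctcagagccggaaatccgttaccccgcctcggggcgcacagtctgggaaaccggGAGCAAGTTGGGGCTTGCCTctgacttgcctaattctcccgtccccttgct
Rps27l: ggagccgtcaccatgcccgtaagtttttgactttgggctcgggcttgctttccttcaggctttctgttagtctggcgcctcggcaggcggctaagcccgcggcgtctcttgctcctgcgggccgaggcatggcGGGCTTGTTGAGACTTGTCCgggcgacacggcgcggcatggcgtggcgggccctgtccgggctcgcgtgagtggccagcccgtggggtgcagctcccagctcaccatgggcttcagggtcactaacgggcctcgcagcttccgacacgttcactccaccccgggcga
Counted from the transcription start on which each window was built, the pair begins at position -195 in Ccng1, -117 in Rps27l and -1 in Gtse1. The Rps27l and Gtse1 genes begin before their printed windows, at 66944624 and 85859691, so the starts used for these 2 lie inside the gene.

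At least 1 exact decamer lay in the windows of 11 of the 31 targets (35.5%), against 2582 of the 27025 genes in the table (9.55%); counted per window, the shares were 12 of 48 (25%) and 2745 of 32851 (8.36%). With 1 mismatch allowed these shares were 23 of 31 (74.2%) and 54.2% of all genes. Of the 19 fallen targets with a window, 7 held a decamer (36.8%), and so did 4 of the 11 measured targets that did not fall (36.4%). The stretch of 40 bases around the decamer is shown for targets in each direction, the fallen Mdm2, Aen and Ei24 first, then Sesn1, which rose, and Gadd45a and Ckap2, which did not pass; capitals mark the decamer. The stretches lie at chr10:117710920-117710959 (minus strand), chr7:78895922-78895961 (plus strand), chr9:36797320-36797359 (minus strand), chr10:41887251-41887290 (plus strand), chr6:67037423-67037462 (minus strand) and chr8:22185998-22186037 (minus strand).
Mdm2: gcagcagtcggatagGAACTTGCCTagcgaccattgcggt
Aen: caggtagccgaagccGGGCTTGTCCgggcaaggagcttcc
Ei24: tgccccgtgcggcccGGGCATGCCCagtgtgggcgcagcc
Sesn1: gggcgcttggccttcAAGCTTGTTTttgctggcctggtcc
Gadd45a: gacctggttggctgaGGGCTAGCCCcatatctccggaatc
Ckap2: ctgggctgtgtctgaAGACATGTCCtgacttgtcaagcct
The other exact decamers were in Polk and Abhd4 and in the 3 genes whose windows are printed in full. A match is a string of letters and no evidence of binding, and response elements of p53 targets often lie outside such short windows.

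Of the 5 arrest and growth control genes, 3 fell, and Plk2 and Gadd45a did not pass; the median of the group was -1.03. Zmat3, an RNA-binding zinc-finger protein that restrains growth, had 8.001, 7.320 and 7.115 in tetraploid cells and 10.12, 10.08 and 10.13 in diploid cells. The diploid values were nearly equal, and the gene was 6.20-fold lower in tetraploid cells (-2.63 ± 0.27, SE; limma adjusted p = 0.00263). Tetraploid arrays 2 and 3 were below background for Zmat3, and its difference was -2.55 with values raised to background. Btg2, an antiproliferative protein that recruits the deadenylase complex to mRNA, had 8.27, 8.11 and 8.67 in tetraploid cells and 10.58, 10.67 and 10.30 in diploid cells. It was 4.49-fold lower in tetraploid cells (-2.17 ± 0.23, SE; limma adjusted p = 0.00309). Plk3, a polo-like kinase of the stress response, had 7.91, 7.66 and 7.33 in tetraploid cells and 8.76, 8.49 and 8.74 in diploid cells, 2.05-fold lower in tetraploid cells (-1.03 ± 0.23, SE; limma adjusted p = 0.0282). The call on Plk3 was lost without any 1 array other than tetraploid array 1, with adjusted p up to 0.103. Plk2, a polo-like kinase of centriole duplication, had 12.12, 11.06 and 12.02 in tetraploid cells and 12.28, 11.99 and 11.93 in diploid cells. Here the groups overlapped, with tetraploid array 2 alone at the low end (-0.33, 95% interval -1.09 to 0.42; limma adjusted p = 0.551). Gadd45a, a damage sensor that binds PCNA and cyclin-dependent kinase 1, had 10.71, 9.40 and 10.42 in tetraploid cells and 10.23, 10.23 and 9.93 in diploid cells. Its tetraploid arrays fell on both sides of the diploid arrays (0.05, 95% interval -0.79 to 0.89; limma adjusted p = 0.948).

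Of the 3 spindle-associated targets, 2 fell and 1 did not pass. Psrc1, a microtubule-binding protein of the mitotic spindle, had 9.00, 9.34 and 8.66 in tetraploid cells and 10.46, 10.54 and 10.60 in diploid cells, 2.89-fold lower in tetraploid cells (-1.53 ± 0.23, SE; limma adjusted p = 0.00937). Gtse1, a microtubule plus-end protein of G2 and S phase that also carries p53 out of the nucleus, had 8.93, 8.65 and 8.93 in tetraploid cells and 9.91, 9.78 and 10.01 in diploid cells. The arrays of either line lay close together, and Gtse1, which holds the paired decamers printed above, was 2.09-fold lower in tetraploid cells (-1.06 ± 0.19, SE; limma adjusted p = 0.0164); leaving out any 1 diploid array ended the call, with adjusted p up to 0.0675. Ckap2, a spindle protein of dividing cells, had 9.26, 9.79 and 9.76 in tetraploid cells and 8.86, 8.88 and 9.11 in diploid cells. All its tetraploid arrays were above all diploid arrays, yet the difference of 0.65 did not pass (95% interval 0.12 to 1.18; limma adjusted p = 0.106).

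Of the 12 cell death genes, 7 fell and none rose, with a median difference of -1.59 (-1.09 with values raised to background). In 11 of the 12 the tetraploid arrays lay wholly below the diploid arrays, Dram1 being the exception, against 18.2% of all genes. In 6 of the 12 every tetraploid array was at or below background. Eda2r, the ectodysplasin A2 receptor of the TNF receptor family, had 6.13, 5.93 and 4.20 in tetraploid cells and 10.20, 10.40 and 10.09 in diploid cells. The tetraploid values were all below background, so the gene was at least 7.68-fold lower in tetraploid cells (limma adjusted p = 0.00276). Pmaip1, which encodes the BH3-only protein Noxa, had 5.24, 5.63 and 6.64 in tetraploid cells and 11.01, 9.83 and 9.23 in diploid cells. It too was below background on every tetraploid array and at least 6.65-fold lower there (limma adjusted p = 0.00537). Aen, an exonuclease that enhances apoptosis and holds an exact decamer in its printed stretch, had 7.79, 7.44 and 7.19 in tetraploid cells and 10.14, 10.14 and 10.13 in diploid cells. The diploid arrays were nearly equal, and Aen was 6.35-fold lower in tetraploid cells (-2.67 ± 0.22, SE; limma adjusted p = 0.00112). Tetraploid array 3 was below background for Aen, and its difference was -2.64 with values raised to background.

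The other fallen death genes were Phlda3, a pleckstrin-homology inhibitor of Akt, Pidd1, the scaffold of the caspase-2-activating PIDDosome, Ei24, an endoplasmic reticulum protein of autophagy, and Tnfrsf10b, the mouse TRAIL receptor. Phlda3 was 4.21-fold lower in tetraploid cells, Ei24 2.94-fold and Tnfrsf10b 2.34-fold, with limma adjusted p of 0.00419, 0.00686 and 0.0161. Leaving out any 1 diploid array ended the call on Tnfrsf10b, with adjusted p up to 0.0705. The PIDDosome is known to respond to extra centrosomes, and Pidd1 had 6.17, 5.94 and 5.87 in tetraploid cells and 7.81, 7.40 and 7.64 in diploid cells. All 3 tetraploid values were below background and the bound is at least 1.25-fold lower, and while the fit on the values as deposited passed (limma adjusted p = 0.00538), it no longer did with values raised to background (adjusted p = 0.184).

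The 5 death genes that did not pass were Perp, Apaf1, Fas, Bbc3 and Dram1. Perp, a desmosomal membrane protein of p53-dependent apoptosis, had 4.80, 7.05 and 3.38 in tetraploid cells and 8.66, 7.83 and 8.28 in diploid cells. The tetraploid arrays were all below background and spread over several log2 units, and the fit just missed the threshold (limma adjusted p = 0.0505); raised to background, where that spread is removed, it passed at 0.00693 and was at least 1.95-fold lower. Apaf1, the core of the apoptosome, had 8.47, 8.85 and 9.25 in tetraploid cells and 9.82, 9.67 and 9.80 in diploid cells (-0.91; limma adjusted p = 0.0532). Fas, a death receptor, and Bbc3, which encodes the BH3-only protein Puma, were below background on all tetraploid arrays, which bounds them at 1.23-fold and 1.24-fold lower at least in tetraploid cells; the limma adjusted p was 0.0846 and 0.0934, and 0.299 and 0.284 with values raised to background. Dram1, a lysosomal protein of autophagy, had 7.51, 7.31 and 7.27 in tetraploid cells and 7.28, 7.30 and 7.50 in diploid cells, a difference of 0.00 with a 95% interval of -0.45 to 0.45. Of the tetraploid arrays only array 1 was above background for Dram1, and diploid arrays 1 and 2 were barely above it. Its difference was 0.04 with values raised to background.

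The 5 DNA repair genes moved in both directions, with 2 that fell, 1 that rose and 2 short of the threshold, and their median was 0.22. Polk, a translesion DNA polymerase, had 8.61, 8.41 and 8.50 in tetraploid cells and 10.10, 9.96 and 9.95 in diploid cells. Both groups were tight, and Polk was 2.82-fold lower in tetraploid cells (-1.50 ± 0.18, SE; limma adjusted p = 0.00473). Ercc5, the XPG endonuclease of nucleotide excision repair, had 8.32, 7.79 and 7.58 in tetraploid cells and 9.28, 9.24 and 9.27 in diploid cells, 2.59-fold lower in tetraploid cells (-1.37 ± 0.24, SE; limma adjusted p = 0.0145). The Ercc5 call was lost without any 1 diploid array, with adjusted p up to 0.0628. Ddb2, the damage-recognition subunit of the same repair pathway, had 7.71, 7.85 and 7.33 in tetraploid cells and 6.40, 6.40 and 6.46 in diploid cells. All diploid values were below background, and Ddb2 was at least 1.38-fold higher in tetraploid cells (limma adjusted p = 0.0141), but with values raised to background the adjusted p was 0.0767. Leaving out any 1 diploid array also ended the call on Ddb2, with adjusted p up to 0.066. Xpc, the other damage sensor of nucleotide excision repair, had 7.86, 8.49 and 7.41 in tetraploid cells and 7.97, 7.67 and 7.48 in diploid cells, with overlapping groups (0.22, 95% interval -0.53 to 0.96; limma adjusted p = 0.707). Rrm2b, the p53-inducible ribonucleotide reductase subunit, had 7.43, 6.88 and 7.03 in tetraploid cells and 7.10, 6.66 and 6.47 in diploid cells, the diploid values all below background and the groups overlapping (limma adjusted p = 0.388).

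Among the metabolism and stress genes 5 of 9 measured fell and 1 rose, with a median of -0.91. None of the 9 was called without diploid array 1 or 2, and 2 were called lower without diploid array 3. The sestrins, stress-induced inhibitors of mTORC1, went opposite ways. Sesn1 had 8.40, 10.00 and 9.11 in tetraploid cells and 7.14, 7.30 and 7.30 in diploid cells, with diploid array 1 below background. Its tetraploid arrays were widely spread and all above the diploid arrays, 3.80-fold higher on average (1.93 ± 0.39, SE; limma adjusted p = 0.0228); without tetraploid array 3 or any 1 diploid array the call was lost, with adjusted p up to 0.0776. Sesn2 had 8.90, 7.76 and 8.81 in tetraploid cells and 10.02, 10.22 and 10.29 in diploid cells, 3.22-fold lower in tetraploid cells (-1.69 ± 0.33, SE; limma adjusted p = 0.0206). The call on Sesn2 was lost without any 1 diploid array, with adjusted p up to 0.0775. Sulf2, an extracellular sulfatase of heparan sulfate, had 7.11, 9.37 and 9.61 in tetraploid cells and 11.29, 11.29 and 11.34 in diploid cells. Tetraploid array 1 stood more than 2 log2 units under the other tetraploid arrays, and the gene was 6.10-fold lower in tetraploid cells (-2.61 ± 0.63, SE; limma adjusted p = 0.0373), a call lost without tetraploid array 2 or any 1 diploid array, with adjusted p up to 0.107. That array was also below background for Sulf2, and the difference was -2.59 with values raised to background. Dcxr, a dicarbonyl reductase, had 7.28, 8.45 and 7.46 in tetraploid cells and 9.71, 9.60 and 9.56 in diploid cells, 3.72-fold lower in tetraploid cells (-1.89 ± 0.33, SE; limma adjusted p = 0.0137). Without diploid array 1 or 2 the call on Dcxr was lost, with adjusted p up to 0.0562.

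Ak1, a cytosolic adenylate kinase, and Tigar, a fructose bisphosphatase that slows glycolysis, fell by smaller steps, 2.58-fold and 1.75-fold lower in tetraploid cells (limma adjusted p of 0.0156 and 0.0469). Ak1 lost its call without diploid array 1 or 2, with adjusted p up to 0.0674, and Tigar without any 1 of the 6 arrays, with adjusted p up to 0.161. Of the tetraploid arrays, only array 1 was above background for Tigar, and its difference was -0.59 with values raised to background. Abhd4, a lipase of N-acyl phospholipids, had 9.56, 10.38 and 10.10 in tetraploid cells and 11.02, 11.05 and 10.72 in diploid cells, without overlap but short of the threshold (-0.91; limma adjusted p = 0.0641). Ddit4, an inhibitor of mTORC1 also induced by hypoxia, had 8.65, 9.34 and 9.63 in tetraploid cells and 8.58, 8.22 and 8.27 in diploid cells. It was higher on every tetraploid array and did not pass (0.85, 95% interval 0.15 to 1.54; limma adjusted p = 0.105). Steap3, a ferrireductase of the endosome, had 10.52, 9.08 and 9.28 in tetraploid cells and 8.82, 8.70 and 9.21 in diploid cells, with tetraploid array 1 far above the rest (0.72, 95% interval -0.22 to 1.66; limma adjusted p = 0.285).

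The lower signal of the targets was present on each tetraploid array. Relative to the mean of the diploid arrays, the median shift over the 38 targets was -1.28, -1.23 and -1.35 for the tetraploid cells, against 0.08, -0.06 and -0.00 for the diploid cells. The feedback genes had medians of -2.41, -2.34 and -2.46 on the tetraploid arrays, and the cell death genes -1.48, -1.49 and -1.58. Arrest and growth control genes varied more between the tetraploid arrays, at -0.757, -1.004 and -1.338. DNA repair genes were at 0.16, 0.14 and -0.30. Within the lines, the targets were more spread in the tetraploid cells: the median SD was 0.36 over tetraploid arrays and 0.14 over diploid arrays, and 32 of 38 targets had the larger SD in tetraploid cells. Over all genes the median SDs were 0.34 over tetraploid arrays and 0.24 over diploid arrays, and 64.8% of genes had the larger SD in tetraploid cells.

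**Figure D3:**
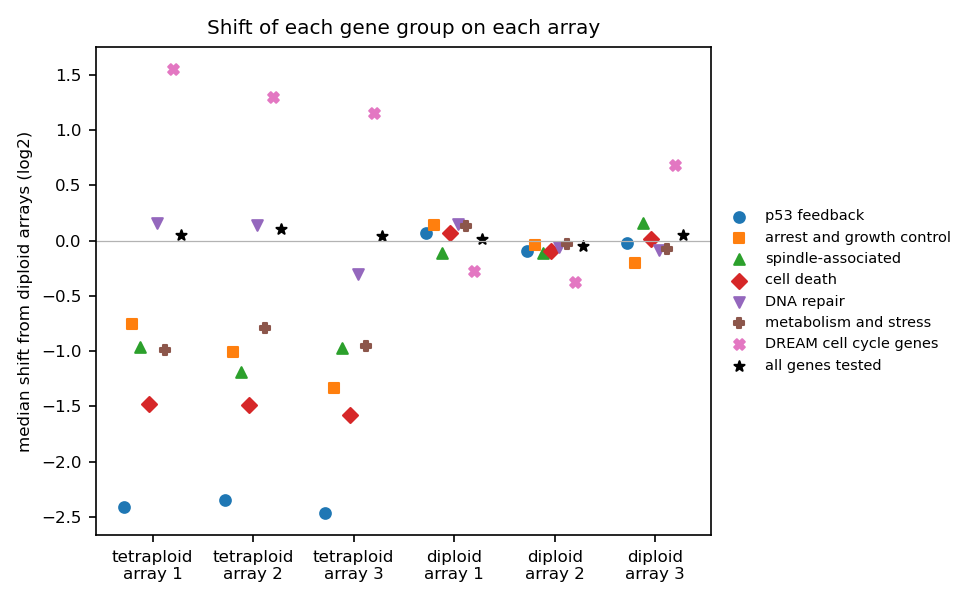
Median shift of each gene group from the mean of the diploid arrays (log2, vertical axis) on each array, tetraploid arrays on the left; each symbol is 1 gene group and the star is the median of all genes tested. The feedback genes lie between -2.46 and -2.34 on the tetraploid arrays, and the DREAM cell cycle genes between 1.16 and 1.55.

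Because tetraploid lines can gain and lose chromosome segments, each target was set beside the 20 nearest measured genes on its chromosome (10 on either side) with a mean signal above the median gene. The 38 targets lay on 16 chromosomes and the 23 that fell on 14. The median difference of the neighbours ranged from -0.60 to 0.46 over targets, with a median of 0.03. With values of targets and neighbours raised to background, 21 of the 23 fallen targets lay at least 1 log2 unit below the median of their own neighbours. The exceptions were Tigar, with a difference of -0.80 from its neighbours, and Pidd1, with one of 0.27. On the same raised values 17 of the 23 were below all 20 neighbours. The median of a target minus its neighbours was then -1.14 over all 38 targets (-1.23 with values as deposited) and -1.84 over the fallen ones. Pidd1 was the 1 fallen target whose neighbours had a median below -0.5. The neighbours of Gtse1 and Psrc1 had medians of 0.43 and 0.46. The 23 targets were picked for their own fall, so their distances from neighbours were largely set by that choice. The part of chromosomal gains or losses was not tested.

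**Figure D4:**
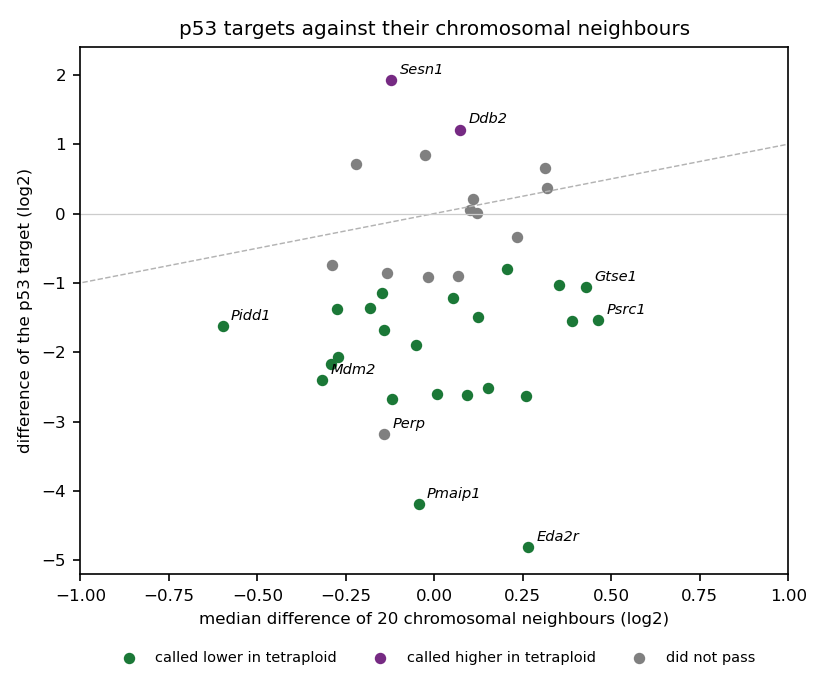
Difference of each p53 target (log2, vertical axis) against the median difference of its 20 chromosomal neighbours (log2, horizontal axis, a narrower scale); the dashed line marks equal values. Neighbour medians stay between -0.60 and 0.46, while the targets reach 1.93 in Sesn1; the low points of Eda2r, Pmaip1, Perp and Pidd1 rest on tetraploid values below background.

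The other genes of the pathway are given in 4 lists. These lists were also chosen with earlier results of these data known, so their shares describe them and are no independent test. Of 25 measured regulators and cofactors of p53, 2 fell, 3 rose and 20 did not pass, with a median of 0.18. The shares called were 8% lower and 12% higher, against 7.8% and 6.15% of all genes, so in this fit the share that fell was near that of all genes. With values raised to background 6 fell and 5 rose, against 10% and 9.87% of all genes. Without diploid array 1 or 2, 1 fell and 1 rose. Of all genes, 3.43% were then called lower and 1.79% higher without array 1, and 2.9% and 1.31% without array 2. Cdkn2a, whose locus encodes the Mdm2 inhibitor Arf and a kinase inhibitor, averaged 12.45 ± 0.10 in tetraploid cells and 10.30 ± 0.27 in diploid cells (SD, n = 3 each), 4.45-fold higher in tetraploid cells (limma adjusted p = 0.00241). The probe set was not resolved into the transcripts of the locus. Chek1, a checkpoint kinase, was 3.63-fold higher in tetraploid cells (limma adjusted p = 0.0194, lost without diploid array 1 or 2 at up to 0.0762), and Ppp1r13l, which encodes iASPP, an inhibitor of p53, was at least 2.96-fold lower (limma adjusted p = 0.00378). The other called genes of this list were Hipk2, a kinase of p53, which fell and is named after its values were seen, and Trp53bp1, a damage-response scaffold, which rose, with limma adjusted p of 0.0396 and 0.0362; both calls were lost without any 1 diploid array and without some tetraploid arrays, at up to 0.141 and 0.123. Mdm4, the partner of Mdm2, averaged 7.84 ± 0.38 in tetraploid cells and 8.70 ± 0.22 in diploid cells (SD, n = 3 each), a difference of -0.85 that did not pass (limma adjusted p = 0.0738).

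A second list of 28 p53 targets, chosen from wider surveys with earlier results of these data known, had 23 measured genes. Of these, 6 fell, 2 rose and 15 did not pass, with a median of -0.45. That is 26.1% called lower and 8.7% higher, against 7.8% and 6.15% of all genes, and is no independent test. With values raised to background 10 fell and 2 rose, against 10% and 9.87% of all genes. Ephx1, the microsomal epoxide hydrolase, averaged 8.02 ± 0.35 in tetraploid cells and 12.00 ± 0.02 in diploid cells (SD, n = 3 each), 15.8-fold lower in tetraploid cells (limma adjusted p = 0.000377). Ptprv, a receptor phosphatase of cell cycle exit, averaged 5.03 ± 0.80 in tetraploid cells and 9.04 ± 0.17 in diploid cells (SD, n = 3 each), at least 3.36-fold lower in tetraploid cells (limma adjusted p = 0.00235). Thbs1, an inhibitor of angiogenesis, was 6.68-fold lower in tetraploid cells (limma adjusted p = 0.00378). Igfbp3, an insulin-like growth factor binding protein, had 7.97, 8.47 and 5.49 in tetraploid cells and 10.27, 11.10 and 10.64 in diploid cells. Tetraploid array 3 was below background, and the difference of -3.36 (limma adjusted p = 0.029) was -2.45 without that array and -2.76 with values raised to background. Leaving out tetraploid array 1 or any 1 diploid array ended the call on Igfbp3, with adjusted p up to 0.0979. The 2 that rose, named after their values were seen, were Cd82, a metastasis-suppressing tetraspanin, 2.87-fold higher in tetraploid cells (limma adjusted p = 0.006), and Rev3l, a translesion polymerase, 2.49-fold higher (limma adjusted p = 0.034). The call on Rev3l was lost without tetraploid array 2 or 3 or any 1 diploid array, with adjusted p up to 0.114.

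Most of the cell cycle genes that p53 lowers by way of DREAM rose in the tetraploid cells, 11 of the 15 measured, while none fell and 4 missed the threshold, with a median of 1.34. That is 73.3% called higher, against 6.15% of all genes. The list was chosen with earlier results of these data known, and this share is no independent test. Without diploid array 1 or 2, 1 of the 15 was called (Bub1b), against 1.79% and 1.31% of all genes called higher, and 7 were called without tetraploid array 2, against 2.98%. Bub1b, a spindle checkpoint kinase, averaged 11.63 ± 0.08 in tetraploid cells and 9.63 ± 0.41 in diploid cells (SD, n = 3 each), 3.98-fold higher in tetraploid cells (limma adjusted p = 0.00519). Plk4, the kinase of centriole duplication, and Cdc25c, a mitotic phosphatase, were 3.07-fold and 3.03-fold higher in tetraploid cells (limma adjusted p of 0.0165 and 0.0123), calls lost without diploid array 1 or 2 at up to 0.0697 and 0.0557. The diploid arrays were not alike here: the median shift of the list was -0.28, -0.37 and 0.68 on the diploid arrays, against 1.55, 1.30 and 1.16 on the tetraploid arrays. Of 12 subunits of DREAM and the RB-E2F complexes, 3 rose (Rbl1, E2f5 and Tfdp1), 1 fell (Rb1) and 8 did not pass, or 25% called higher and 8.33% lower, against 6.15% and 7.8% of all genes. Without diploid array 2 none was called. Tfdp1 lost its call without any 1 of the 6 arrays, with limma adjusted p up to 0.182. E2f5 and Rb1 each lost theirs without any 1 of 5 arrays, at up to 0.169 and 0.139. The growth rate of the cultures is not given in the labels, and its part in the cell cycle genes was not tested.

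**Figure D5:**
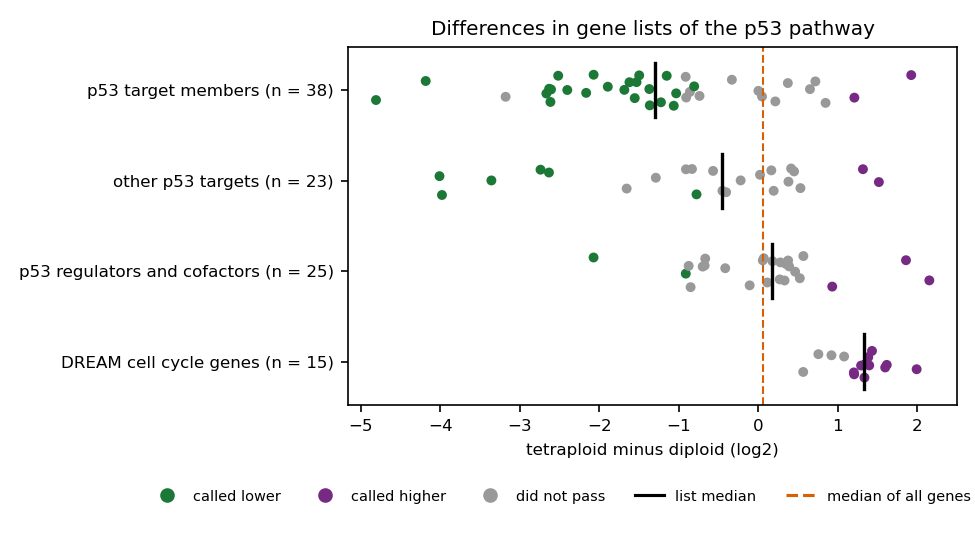
Tetraploid minus diploid difference (log2, horizontal axis) of each gene in 4 lists of the p53 pathway; black bars are list medians, the dashed line is the median of all genes (0.07), and vertical scatter within a list only separates points. The medians are -1.29 for the p53 targets, -0.45 for the second target list, 0.18 for regulators and cofactors and 1.34 for DREAM cell cycle genes.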

How the data were processed

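The deposited table holds 1 log2 signal per probe set and sample, made by the authors with Affymetrix Expression Console, per the submitters' processing notes; its version, the summary method and the normalization are not given in the sources used here. Values below 1000 on the linear scale were whole hundredths in 100% of cases (tolerance 0.001). Of 28944 probe sets, 21789 carried 1 gene symbol, 1621 several and 5534 none in the platform annotation; 21698 matched RefSeq by Entrez ID and gave 19856 genes. Where a gene had several probe sets (993 genes), 1 was kept by mean signal; each measured p53 target had 1.

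The test was limma's moderated fit (lmFit and eBayes, version 3.58.1, under R 4.3.3) of tetraploid against diploid arrays, with Benjamini-Hochberg adjustment over all genes and a threshold of 0.05. The fit and the motif search were tested on simulated data with known changes. For a gene at or below background on every array of a line, "at least" folds use values raised to each array's background. Same-numbered arrays did not deviate together (correlations 0.101, 0.0307 and -0.0461), so numbers were not taken to pair samples. The members and gene lists were chosen with earlier results of these data known. Any member may be named; called members with the largest differences per role group are given in full, and up to 4 called genes per other list that were above background in at least 1 line; further names are marked as chosen after their values were seen. Alternatives covered background, filtering, normalization, probe sets, limma options, array weights, a replicate block, leaving out each array, neighbour number and motif mismatches.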

Additional observations from a re-analysis of the deposited data

How the results depend on the processing

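Of the 23 p53 targets that fell, 12 did so under all 14 refits (Mdm2, Ccng1, Trp53inp1, Btg2, Zmat3, Psrc1, Pmaip1, Aen, Eda2r, Ei24, Phlda3 and Polk), 11 lost the call in at least 1, 7 of them only without 1 array, and none of the 38 reversed a call. Of the 13 targets that did not pass, 7 were called in at least 1 refit. Ckap2 and Ddit4 were called higher in 4 and 5 refits. Perp, Apaf1, Abhd4, Fas and Bbc3 were called lower in 6, 4, 3, 1 and 1. Leaving out 1 array at a time left between 13 and 22 fallen targets, between 0 and 4 that rose and between 837 and 2532 genes called in all (2770 with every array); fewer arrays enter such fits. The median over targets then ranged from -1.35 to -1.21. With the replicate number as a block, 21 targets fell, 2 rose and 1644 genes were called; the block also ended the calls on Plk3 and Tigar. Values raised to background gave 25 fallen and 3 risen targets and a median of -1.11, smaller because low values are lifted. A filter to genes above background on at least 3 arrays gave 28 fallen and 4 risen targets over fewer genes. It also keeps genes that pass it only through the line where they are high. Limma with trend and robust options gave 24 and 4, and the cause was not tested. Quantile normalization and median centring each gave 24 and 2. With 1 mismatch allowed per decamer, 23 targets rather than 11 held a decamer and 3 rather than 0 a pair. The median over the 12 relatives of the targets, 0.14, ranged from -0.0396 to 0.195 without 1 array, the sign turning without tetraploid array 1. With 40 neighbours in place of 20, the median target minus neighbours was -1.27, against -1.23, and it was -1.14 with values raised to background, a setting chosen after seeing the data.

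The number of arrays limits the precision, and signals at or below background give only bounds: 8 of the 38 targets had 1 line there. The deposited normalization is unknown and could not be undone. 1 line stands for each ploidy, and no result can be assigned to ploidy, transformation or the lines' own histories. Growth state is not given in the labels, and its part in the cell cycle genes was not tested.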

Other observations

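Relatives of the p53 targets that are less clearly tied to p53 were read after the targets' values had been seen. The list has 12 genes, of which 2 fell, 2 rose and 8 missed the threshold. That is 16.7% called lower and 16.7% higher, against 7.8% and 6.15% of all genes. The median difference over the 12 genes, 0.14, turned to -0.0396 without tetraploid array 1. Sesn3, the third sestrin, which is induced by FoxO factors, averaged 10.51 ± 0.16 in tetraploid cells and 8.69 ± 0.08 in diploid cells (SD, n = 3 each), 3.53-fold higher in tetraploid cells (limma adjusted p = 0.0028), so that Sesn1 and Sesn3 rose where Sesn2 fell. Trp53inp2, an autophagy protein related to Trp53inp1, was 3.85-fold lower in tetraploid cells (limma adjusted p = 0.0123), a call lost without diploid array 2 at 0.0561. Gadd45g, a relative of Gadd45a, was 4.50-fold lower in tetraploid cells (limma adjusted p = 0.0232), lost without any 1 diploid array at up to 0.0833. Steap2 was 1.66-fold higher in tetraploid cells (limma adjusted p = 0.046), a call lost without any 1 of the 6 arrays. Sulf1, the paralogue of Sulf2, had 7.11, 0.01 and 8.03 in tetraploid cells and 11.77, 11.57 and 11.37 in diploid cells; the value near 0 on tetraploid array 2 widened the spread, and the gene did not pass (limma adjusted p = 0.068). The 3 Mir34 host probe sets, Mir34a, Mir34b and Mir34c, were at or below background on all 6 arrays, and no fold is given.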
